A study of Mus musculus with 6 samples.

Results

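Serotonin receptor genes were examined in bulk RNA sequencing of mouse dorsal root ganglia, the clusters beside the spinal cord that hold the cell bodies of sensory neurons. The 10 genes, Htr1a, Htr1b, Htr1d, Htr1f, Htr2a, Htr3a, Htr3b, Htr4, Htr5a and Htr7, were taken by symbol from a table of 54532 genes, and none of them occurred more than once. The groups were 3 libraries of ganglia from Ash1l+/- mice and 3 libraries from WT littermates. Ash1l encodes a histone H3 lysine 36 methyltransferase. The labels give no age, sex, treatment, allele structure or number of animals per library, so the spread between libraries may be partly technical. In such bulk tissue, fewer cells of a type and less RNA per cell cannot be told apart.

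Serotonin reaches sensory nerve endings mainly from platelets, mast cells and gut cells in the periphery, and from descending brainstem fibres in the spinal cord. Htr3a and Htr3b encode subunits of a cation channel that serotonin opens directly. The other 8 genes encode receptors coupled to G proteins. Htr1a, Htr1b, Htr1d, Htr1f and Htr5a couple to Gi/o and lower cyclic AMP, Htr4 and Htr7 couple to Gs and raise it, and Htr2a couples to Gq and activates phospholipase C. The receptors encoded by Htr1b, Htr1d and Htr1f are targets of antimigraine drugs.

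Library totals ranged from 17209294 to 20545722 reads. The 10 genes together had 6070, 4553 and 4831 reads in Ash1l+/- replicates 1, 2 and 3, against 5550, 3324 and 5465 reads in WT replicates 1, 2 and 3. WT replicate 2 stood apart, with correlations of log2 CPM (counts scaled to library size) of 0.846 to 0.877 with the other libraries across genes, against 0.981 or more among the other 5. Tests are therefore given for 6 libraries and for 5, without WT replicate 2. Summed CPM of 8 markers of sensory neurons, all measured, was 9449 to 9758 in Ash1l+/- and 10174 to 22903 in WT libraries, the highest in WT replicate 2. Uchl1 and Prph carried that sum, and the other 6 markers were lower in WT replicate 2 than in the mean of WT replicates 1 and 3, with a median log2 difference over the 8 of -0.29. Ash1l itself had 4.61, 4.58 and 4.75 FPKM (reads scaled to gene length and library size, as deposited) in Ash1l+/- replicates 1, 2 and 3, against 4.19, 2.11 and 3.74 FPKM in WT replicates 1, 2 and 3. It was not lower in the Ash1l+/- libraries (log2 fold change 0.46, adjusted p = 0.396 in edgeR's quasi-likelihood test with 6 libraries, and 0.22, adjusted p = 0.0593 with 5). The transcript thus gives no check of the labels, and Ash1l+/- and WT below mean the libraries so labelled.

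The sequences upstream of 2 genes are shown first because Htr1f and Htr3b had the largest fold changes in each direction without WT replicate 2. Each is 180 bases of the RefSeq promoter window on GRCm38.p6, written along the minus strand and ending before every annotated start of its gene. The Htr1f stretch is chr16:65105855-65106034 and the Htr3b stretch is chr9:48965061-48965240. Capitals mark CpG dinucleotides.
Htr1f: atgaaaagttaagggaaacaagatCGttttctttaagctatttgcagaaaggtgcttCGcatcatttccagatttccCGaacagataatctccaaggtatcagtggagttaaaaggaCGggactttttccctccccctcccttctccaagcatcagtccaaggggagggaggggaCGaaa
Htr3b: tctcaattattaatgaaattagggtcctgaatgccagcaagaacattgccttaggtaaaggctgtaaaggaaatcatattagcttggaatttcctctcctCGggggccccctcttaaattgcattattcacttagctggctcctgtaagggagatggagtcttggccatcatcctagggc
The Htr1f stretch held 5 CpG and the Htr3b stretch 1, where the median of 32851 RefSeq windows cut the same way was 4. Of those windows, 43.5% held at least 5 CpG and 87.3% held at least 1. RefSeq windows were found for 8 of the 10 genes. The Htr7 window held 32 CpG, a number reached in 0.584% of all windows, and 77 of its 180 bases lie inside the gene as the table gives it. One of the windows of Htr1d, the one with a GC box, lies inside its gene altogether. On either strand, GGGCGG (the GC box) was found in windows of Htr1a, Htr1d and Htr2a and in 21.1% of all windows. CCAAT was found in windows of Htr1b and Htr1d and in 25.0% of all windows. TAATTA was found in the window of Htr2a and in 3.86% of all windows. TGACGTCA was found in none of the receptor windows and in 0.584% of all windows. None of these motifs contains another, and a match or its absence describes only these letters in these windows.

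All 10 genes were detected in every library, and their levels spanned a wide range in the same order at both ends. On the FPKM scale, which can be compared between genes because it is per length, Htr3a was first in every library, Htr1d second and Htr5a last. Averaged over 6 libraries, the levels were 57.5 FPKM for Htr3a, 13.7 for Htr1d, 7.64 for Htr3b, 5.89 for Htr1b, 5.62 for Htr7, 2.45 for Htr4, 2.42 for Htr1a, 2.09 for Htr2a, 1.92 for Htr1f and 0.749 for Htr5a. The range of Htr3a did not overlap that of Htr1d, and that of Htr1d did not overlap that of Htr3b. Htr3b, Htr1b and Htr7 could not be ordered beyond their spread, and neither could Htr4, Htr1a, Htr2a and Htr1f with 6 libraries. With 5 libraries the lowest Htr4 and Htr1a values, 2.44 and 2.49 FPKM, lay above the highest Htr1f value, 2.36 FPKM. The gap between Htr7 and the next gene, Htr4, held without WT replicate 2, where the lowest Htr7 value was 5.51 FPKM and the highest Htr4 value 2.92 FPKM. With WT replicate 2 these ranges overlapped, although Htr7 was above Htr4 in 6 of 6 libraries. Htr5a did not overlap Htr1f, the gene above it.

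**Figure D1:**
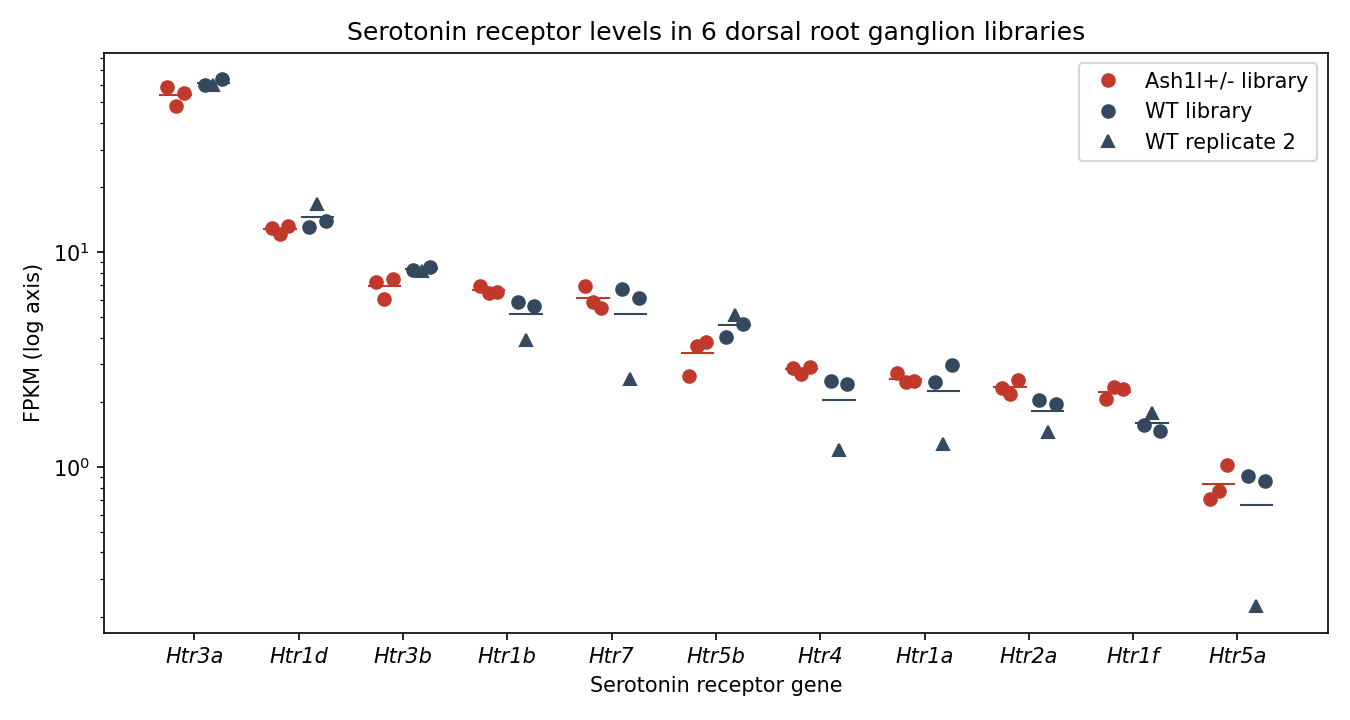
FPKM (log axis) of the 10 serotonin receptor genes and of Htr5b in each library, with Ash1l+/- libraries left of WT libraries, a line at each group mean and a triangle for WT replicate 2. Htr3a lies between 47.7 and 63.6 FPKM, and the Htr5a value of WT replicate 2, 0.225 FPKM, is the lowest point.

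The channel subunits made up most of the receptor message per length. Htr3a and Htr3b together took 63.7%, 60.6% and 63.2% of the summed FPKM of the 10 genes in Ash1l+/- replicates 1, 2 and 3, against 65.8%, 70.1% and 67.1% in WT replicates 1, 2 and 3. Every Ash1l+/- library was below every WT library in this share, which carries no test. Htr3a alone took 53.8% to 61.7% of the sum. The share was not corrected for trends along GC content and gene length. With those removed, the log2 fold change of Htr3a was -0.05 with 5 libraries and 0.10 with 6. Receptors coupled to Gi/o took 24.5% to 27.3% in Ash1l+/- and 23.1% to 24.5% in WT libraries. Htr4 and Htr7 together took 8.51% to 9.66% in Ash1l+/- libraries, against 3.88% in WT replicate 2 and 7.95% to 8.95% in the other WT libraries. Htr2a took 2.25% to 2.56% in Ash1l+/- and 1.49% to 1.98% in WT libraries. The summed FPKM itself overlapped between the groups, at 97.1 ± 7.60 in Ash1l+/- and 103 ± 5.02 in WT libraries (SD, n = 3 each).

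**Figure D2:**
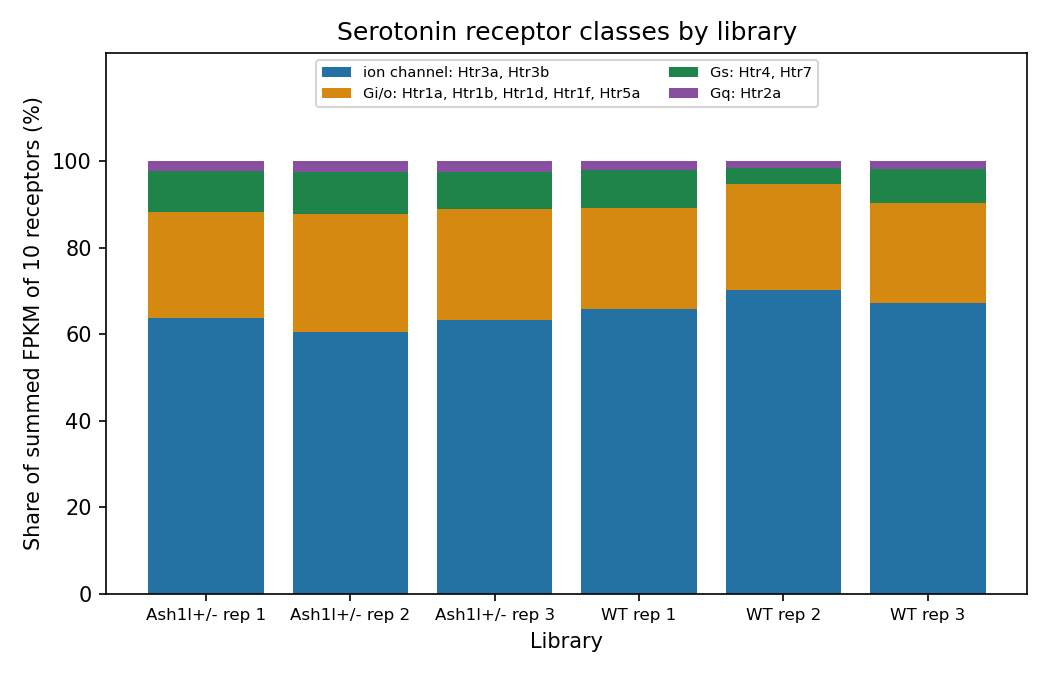
Share of the summed FPKM of the 10 serotonin receptor genes taken by each signalling class, 1 bar per library. The channel subunits span 60.6% to 63.7% in Ash1l+/- libraries and 65.8% to 70.1% in WT libraries.

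The main comparison asked which of these genes differ in sensory ganglia between Ash1l+/- and WT mice. None of the 10 passed in edgeR with TMM factors. With 6 libraries, edgeR's quasi-likelihood test with Benjamini-Hochberg adjustment over 16032 genes called 0 of 10 receptor genes at an adjusted p of 0.05, where the background was 0% of all genes. At an unadjusted p of 0.05 the counts were 0 of 10 receptor genes and 10.6% of all genes, and DESeq2 called 0 receptor genes and 0.218% of all genes. Limma-voom with library quality weights called 1 receptor gene, Htr1f, and 26.1% of all genes. With 5 libraries edgeR again called 0 of 10 receptor genes. Its background there was 19.8% of 16395 genes, made up of 9.39% that rose and 10.4% that fell. At an unadjusted p of 0.05 it passed 3 of 10 receptor genes, Htr1f, Htr3a and Htr3b, and 33.2% of all genes. DESeq2 called 0 receptor genes and 17.9% of all genes, and limma-voom with quality weights called 2, Htr1f and Htr3a, and 24.7% of all genes. The smallest adjusted p of a receptor gene was 0.385 with 6 libraries and 0.0514 with 5. The median log2 fold change of the 10 genes was 0.27 with 6 libraries and -0.08 with 5, beside medians of 0.00 over all genes tested in both.

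The intervals of the edgeR fit with TMM factors give a range for each receptor under that fit. Without WT replicate 2, its 95% intervals of the 10 log2 fold changes reached no lower than -0.53 and no higher than 0.96. Other fits moved these limits. With trends along GC content and gene length removed, Htr5a was at -0.21 (SE 0.20) without WT replicate 2, and its interval reached lower. With 6 libraries and TMM factors alone, the intervals ran as wide as -0.93 to 1.54, both bounds belonging to Htr5a.

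**Figure D3:**
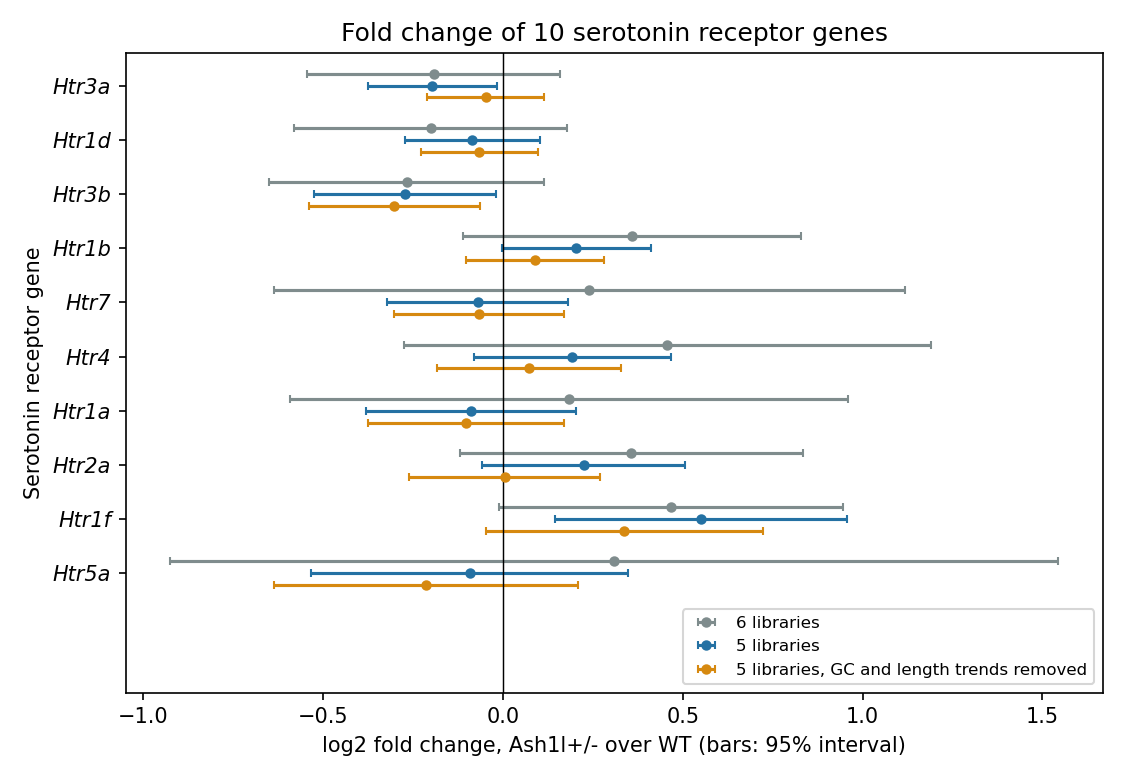
Log2 fold change of each receptor gene, Ash1l+/- over WT, with 95% intervals from edgeR, for 6 libraries, for 5 without WT replicate 2, and for these 5 with trends along GC content and gene length removed. Genes run from the highest level at the top to the lowest at the bottom, and the interval of Htr5a with 6 libraries is the widest.

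Htr3a, the subunit that every serotonin-gated channel of this class needs, was at 58.7, 47.7 and 55.1 FPKM in Ash1l+/- replicates 1, 2 and 3, against 59.6, 60.2 and 63.6 FPKM in WT replicates 1, 2 and 3. All Ash1l+/- values lay below all WT values, by a gap of under 1 FPKM between the nearest libraries. In edgeR the fold change on the log2 scale came to -0.19 (SE 0.15, adjusted p = 0.465) with 6 libraries and -0.20 (SE 0.09, adjusted p = 0.113) with 5. With Ash1l+/- replicate 1 left out as well as WT replicate 2, the log2 fold change was -0.27 (adjusted p = 0.0193 in edgeR). With Ash1l+/- replicate 2 or 3 left out instead, it was -0.12 or -0.21 (adjusted p = 0.448 or 0.157 in edgeR). With WT replicate 1 or 3 left out instead, which leaves a single WT library, it was -0.25 or -0.15.

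Htr3b, the subunit that joins Htr3a and changes the conductance of the channel, was at 7.28, 6.07 and 7.51 FPKM in Ash1l+/- replicates 1, 2 and 3, against 8.27, 8.18 and 8.52 FPKM in WT replicates 1, 2 and 3. These groups did not overlap either. The log2 fold change was -0.27 with 6 libraries (SE 0.16, adjusted p = 0.400 in edgeR) and -0.27 with 5 (SE 0.12, adjusted p = 0.121). Both genes lie on the minus strand of GRCm38 chromosome 9, Htr3a (ENSMUSG00000032269) from 48899213 to 48911099 and Htr3b (ENSMUSG00000008590) from 48935008 to 48964990. The 23908 bases between them hold no other gene of the table. The ratio of Htr3a to Htr3b in FPKM was 8.07, 7.86 and 7.33 in Ash1l+/- replicates 1, 2 and 3, against 7.21, 7.36 and 7.47 in WT replicates 1, 2 and 3. The groups overlapped in this ratio. For both genes WT replicate 2 lay beside the other WT libraries, at 0.977 of their mean for Htr3a and 0.975 for Htr3b.

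Htr1f (ENSMUSG00000050783, chromosome 16 from 64924729 to 65105854, minus strand) came nearest to the threshold. It encodes a Gi/o-coupled receptor and in mouse single-cell maps it marks the itch neurons that express Nppb. Its reads numbered 113, 111 and 104 in Ash1l+/- replicates 1, 2 and 3, against 80, 61 and 72 in WT replicates 1, 2 and 3. The levels were 2.06, 2.36 and 2.30 FPKM in Ash1l+/- replicates 1, 2 and 3, against 1.57, 1.79 and 1.48 FPKM in WT replicates 1, 2 and 3. The groups did not overlap, with WT replicate 2 the highest of the WT libraries. In edgeR its log2 fold change came to 0.47 (SE 0.20, adjusted p = 0.385) with 6 libraries and 0.55 (SE 0.19, adjusted p = 0.0514) with 5. The side of the threshold on which Htr1f fell moved with the scaling, since the 5-library test gave an adjusted p of 0.0492 in edgeR with RLE factors and 0.0486 with upper-quartile factors. With trends along GC content and gene length removed, the log2 fold change was 0.34 (adjusted p = 0.301) with 5 libraries and 0.14 (adjusted p = 0.750) with 6.

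Markers of the Nppb itch neurons were read beside Htr1f. All 7 were measured, and their summed CPM was 578 to 699 in Ash1l+/- and 399 to 554 in WT libraries. Jak1, which many cell types express, held 75.4% of the reads of this list. Without Jak1 the sums were 124 to 183 in Ash1l+/- libraries, against 110, 172 and 119 in WT replicates 1, 2 and 3. The groups overlapped with 6 libraries through WT replicate 2, and did not overlap with 5. These sums carry no test. Nppb itself was at 11.3, 21.5 and 18.4 FPKM in Ash1l+/- replicates 1, 2 and 3, against 16.0, 13.4 and 16.5 FPKM in WT replicates 1, 2 and 3, and overlapped. With 5 libraries, 9.39% of all genes were called higher in edgeR. Among them Osmr, a subunit of the interleukin 31 receptor, rose by a log2 fold change of 0.34 (adjusted p = 0.0228 in edgeR). Nts, the neurotensin gene, rose by 1.83 (adjusted p = 1.22e-05 in edgeR). Neither passed with 6 libraries (adjusted p = 0.385 for both), and with trends removed Osmr was not called (0.12, adjusted p = 0.482). Nppb (0.06), Sst (0.03), Il31ra (0.35), Cysltr2 (0.10) and Jak1 (0.21) did not pass in edgeR. The part of these cells in the Htr1f values was not tested.

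None of the other Gi/o receptors passed the test in edgeR. Htr1d was at 13.0, 12.1 and 13.2 FPKM in Ash1l+/- replicates 1, 2 and 3, against 13.1, 16.7 and 13.9 FPKM in WT replicates 1, 2 and 3. The groups overlapped, and the log2 fold change was -0.20 with 6 libraries and -0.09 with 5 (SE 0.16 and 0.09). Htr1b was at 6.96, 6.45 and 6.51 FPKM in Ash1l+/- replicates 1, 2 and 3, against 5.89, 3.92 and 5.62 FPKM in WT replicates 1, 2 and 3. Every Ash1l+/- library was above every WT library, with log2 fold changes in edgeR of 0.36 (SE 0.19, adjusted p = 0.389) with 6 libraries and 0.20 (SE 0.10, adjusted p = 0.158) with 5. Htr1b overlaps D430036J16Rik on the opposite strand, a gene with 88 reads in Ash1l+/- and 68 in WT libraries, and the kit named in the labels does not mark strand. Htr1a, known as a serotonin autoreceptor in the brainstem, was at 2.74, 2.49 and 2.50 FPKM in Ash1l+/- replicates 1, 2 and 3, against 2.49, 1.28 and 3.00 FPKM in WT replicates 1, 2 and 3. Its log2 fold change was 0.18 with 6 libraries and -0.09 with 5, so the direction turned with WT replicate 2. Htr5a, the lowest of the 10, was at 0.709, 0.775 and 1.02 FPKM in Ash1l+/- replicates 1, 2 and 3, against 0.910, 0.225 and 0.857 FPKM in WT replicates 1, 2 and 3. It rested on 16 reads in WT replicate 2 and 76 to 97 reads in the other libraries, and its direction also turned, with log2 fold changes of 0.31 and -0.09.

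The Gs and Gq receptors did not pass either. Htr7, a receptor linked to serotonin itch in mice, was at 6.94, 5.85 and 5.51 FPKM in Ash1l+/- replicates 1, 2 and 3, against 6.71, 2.58 and 6.10 FPKM in WT replicates 1, 2 and 3. Its log2 fold change was 0.24 (SE 0.36) with 6 libraries and -0.07 (SE 0.12, adjusted p = 0.725 in edgeR) with 5. Htr4 was at 2.89, 2.72 and 2.92 FPKM in Ash1l+/- replicates 1, 2 and 3, against 2.52, 1.20 and 2.44 FPKM in WT replicates 1, 2 and 3. The Htr4 groups did not overlap, and the log2 fold change was 0.46 (SE 0.30) with 6 libraries and 0.19 (SE 0.13, adjusted p = 0.324 in edgeR) with 5. Htr2a, through which serotonin excites many neurons, was at 2.33, 2.19 and 2.54 FPKM in Ash1l+/- replicates 1, 2 and 3, against 2.04, 1.46 and 1.97 FPKM in WT replicates 1, 2 and 3. Its groups did not overlap, and the log2 fold change was 0.36 (SE 0.20) with 6 libraries and 0.22 (SE 0.13, adjusted p = 0.258 in edgeR) with 5.

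In all, the groups of 3 and 3 libraries did not overlap for 6 of the 10 receptor genes, 4 higher and 2 lower in Ash1l+/-. The same separation was seen for 38.5% of all 16032 genes tested, 19.3% higher and 19.2% lower. The same 6 genes were separate with 5 libraries, where the background was 49.7%, 24.2% higher and 25.5% lower. Separation of 3 libraries from 3 fixes an exact two-sided permutation p at 0.1, the smallest this design can give, so that p adds nothing to the count.

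**Figure D4:**
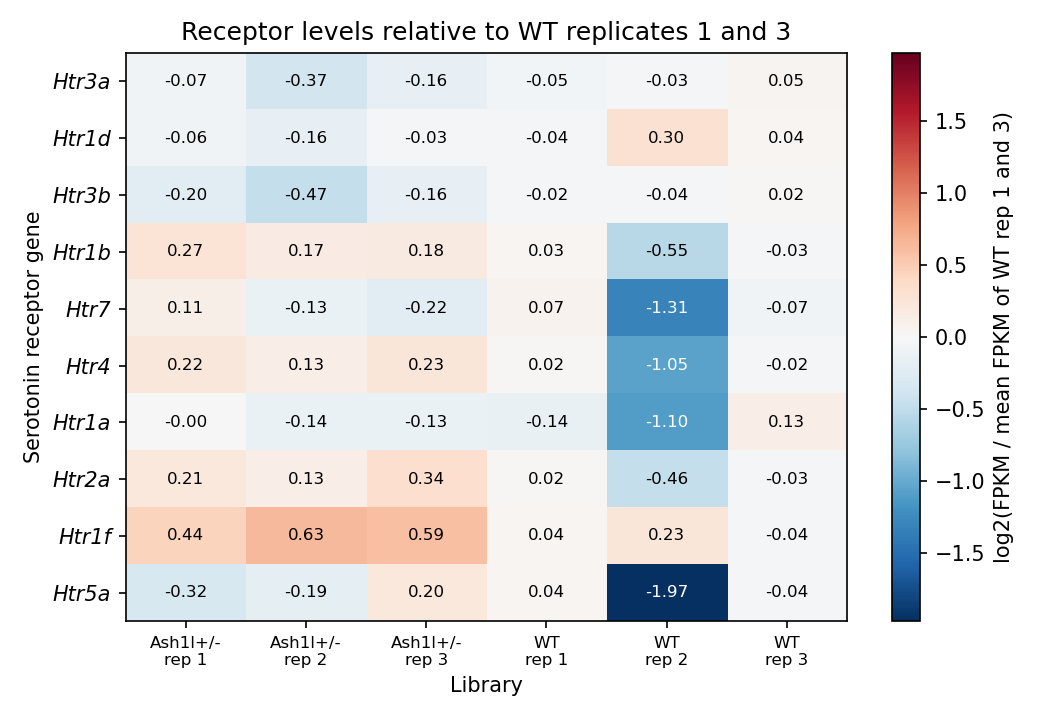
Log2 ratio of each receptor gene's FPKM to its mean in WT replicates 1 and 3, with 1 column per library and genes in order of level. Htr1f is above 0 in the 3 Ash1l+/- libraries, Htr3b is below 0 in them, and WT replicate 2 holds the largest departures, down to -1.97 for Htr5a.

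In WT replicate 2 the receptors did not differ from the other WT libraries by a common factor. Relative to the mean of WT replicates 1 and 3, its FPKM was 0.255 for Htr5a, 0.402 for Htr7, 0.467 for Htr1a, 0.483 for Htr4, 0.681 for Htr1b and 0.725 for Htr2a. It was 1.23 for Htr1d and 1.17 for Htr1f. Across the 10 genes the log2 ratio went with gene length at a Spearman rho of -0.59, and across all tested genes at -0.37. These correlations run over genes that share 3 libraries, and they are given as a description. Beside this, summed CPM of skeletal muscle markers was 31.3 in WT replicate 2 and at most 2.85 in the other 5 libraries, and that of erythrocyte markers was 628 and at most 101. Alas2, of the erythrocyte list, was not raised, at 0.566 FPKM against 0.504 and 0.617 FPKM in WT replicates 1 and 3. Some lists of ganglion cells stood apart too. Satellite glia markers summed to 12118 CPM there and at most 4239 elsewhere, and cold neuron markers to 6.72 and at least 38.4. Markers of Mrgprd nociceptors, at 814, lay within the 801 to 855 of the other libraries. The part of these tissues and cells in the receptor values was not tested.

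Fold changes of the receptors ran along the GC content of their transcripts. With 5 libraries the 10 log2 fold changes correlated with transcript GC content at a Pearson r of -0.85 and a Spearman rho of -0.72, where the rho over all tested genes was -0.55. Htr1f had the lowest GC content of the 10, 39.4%, and the highest fold change. Htr3a had the highest GC content, 53.4%. Read against the quartiles of all genes of like GC content, 7 of the 10 lay inside, Htr1f above, and Htr3b and Htr5a below. Quartiles leave as many genes of a bin outside as inside, so this is no excess of receptors outside. For Htr1f the bin's median was 0.25 and its upper quartile 0.38, and for Htr3b the median was 0.06 and the lower quartile -0.10. The same 3 genes lay outside the quartiles with the trends removed. The points share 5 libraries, and the correlation is a description. With both trends removed, the receptors correlated with GC content at a Pearson r of -0.58 and a Spearman rho of -0.54 with 5 libraries, where all genes were at 0.02 and 0.04. With 6 libraries the same values for the receptors were -0.07 and -0.09, so the remaining correlation was not seen in both sets. With 5 libraries and trends removed, the log2 fold change of Htr3a was -0.05, that of Htr2a 0.00 and that of Htr1b 0.09. Of the 10, 1 had an unadjusted p under 0.05 then, beside 21.7% of all genes. It was Htr3b, with a log2 fold change of -0.30 (SE 0.11, adjusted p = 0.118 in edgeR). Of all genes, 7.04% were called with the trends removed, 2.62% higher and 4.42% lower, and 0 of the 10 receptors.

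**Figure D5:**
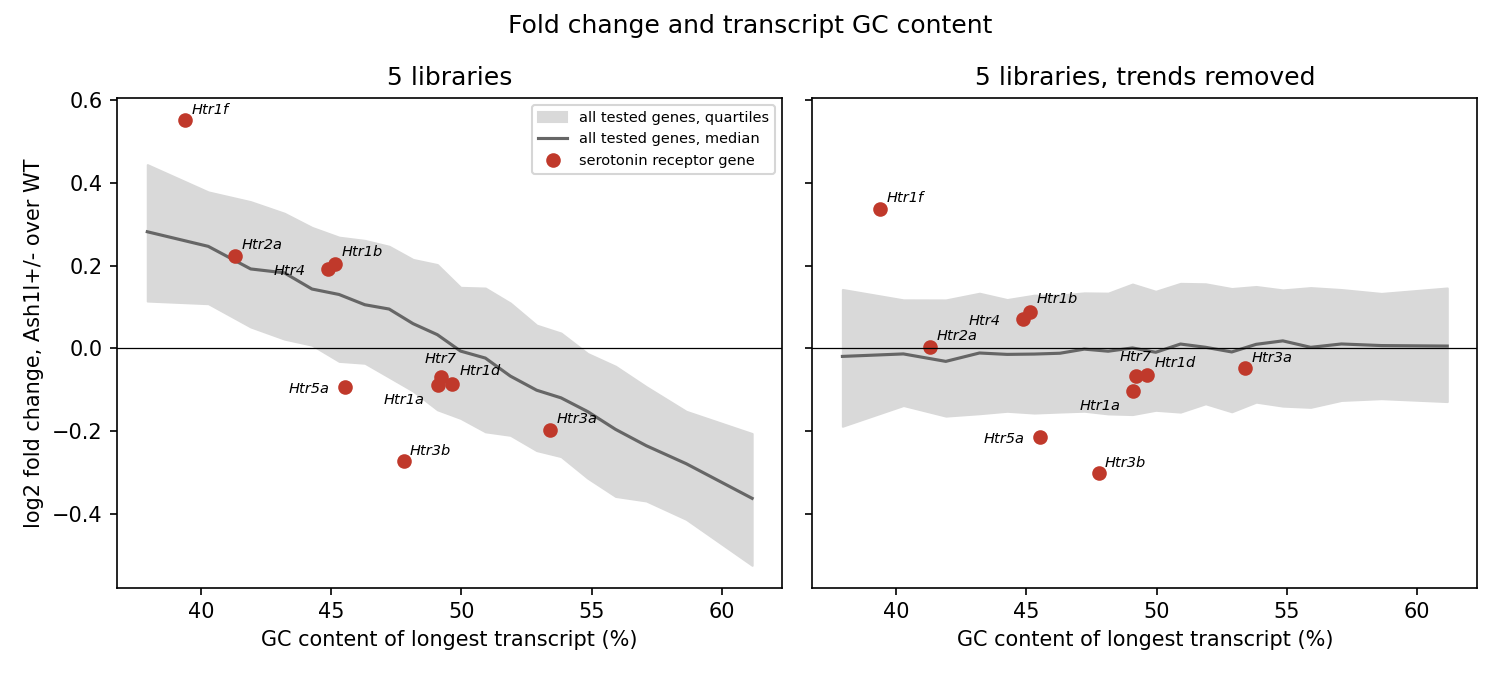
Log2 fold change of the 10 receptor genes (points), Ash1l+/- over WT without WT replicate 2, against the GC content of the longest transcript, before (left) and after (right) removal of GC and length trends. The line and band are the median and quartiles of all tested genes in 20 bins of GC content, and Htr1f lies above the band and Htr3b and Htr5a below it in both panels.

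Ratios between receptor genes within a library do not depend on library scaling. Among the 45 pairs of the 10 genes, the ratio of FPKM separated Ash1l+/- from WT libraries in 13 with 6 libraries and in 27 with 5. The share over pairs of other genes was not computed, so these counts have no background. Of all genes taken singly, 38.5% were separate with 6 libraries and 49.7% with 5. In 12 of the 13 pairs separate with 6 libraries, Htr3a, Htr3b or Htr1d was set over Htr1b, Htr4, Htr2a or Htr1f, and the ratio was lower in Ash1l+/-. The other was Htr4 over Htr1a, which was higher in Ash1l+/-. Taken singly, Htr3a and Htr3b were already lower, and Htr1b, Htr4, Htr2a and Htr1f higher, in every Ash1l+/- library. Ratios of Htr3a or Htr3b over those genes therefore had to separate, and they add nothing to the separation of the single genes. The ratio of Htr1d to Htr1f was 6.28, 5.14 and 5.76 in Ash1l+/- replicates 1, 2 and 3, against 8.40, 9.34 and 9.41 in WT replicates 1, 2 and 3. Here WT replicate 2 lay with the other WT libraries. Htr1d has a GC content of 49.6% and Htr1f of 39.4%, and the ratio was not corrected for the GC trend. The ratios were looked at after the values were known and carry no test.

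Of the 4 other serotonin receptor genes in the table, Htr5b alone passed the filter on low counts. Htr5b, a receptor gene that humans lack in working form, was at 2.65, 3.65 and 3.82 FPKM in Ash1l+/- replicates 1, 2 and 3, against 4.02, 5.12 and 4.65 FPKM in WT replicates 1, 2 and 3. The groups did not overlap, with log2 fold changes in edgeR of -0.45 (SE 0.23, adjusted p = 0.385) with 6 libraries and -0.37 (SE 0.18, adjusted p = 0.160) with 5. Htr6 had 11, 0 and 12 reads in Ash1l+/- replicates 1, 2 and 3, against 6, 5 and 5 in WT replicates 1, 2 and 3. A count of 0 in Ash1l+/- replicate 2 allows up to 0.17 CPM, a limit of 3 reads that covers counting error only. Reads of Htr2b numbered 4 in the Ash1l+/- libraries together and 8 in the WT libraries together, and those of Htr2c numbered 10 in Ash1l+/- and 9 in WT libraries. Htr2b overlaps Psmd1, a gene on the opposite strand with 11278 reads in Ash1l+/- and 8106 in WT libraries. Differences in these 3 genes were not detectable at this depth.

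Genes that make, move and break down serotonin were read as a list of 15, of which 11 passed the filter. Tph2, the neuronal form of the enzyme that starts serotonin synthesis, was at 0.435 to 0.666 FPKM in Ash1l+/- and 0.403 to 0.709 FPKM in WT libraries. The peripheral form Tph1 had 11 reads over 6 libraries, and neither it nor Slc6a4, the serotonin transporter, passed the filter. Slc6a4 had 27 reads in all, at 0.0623, 0.121 and 0.10 FPKM in Ash1l+/- replicates 1, 2 and 3, against 0.0111, 0.0167 and 0.0117 FPKM in WT replicates 1, 2 and 3. The groups did not overlap, as was the case for 38.5% of the genes that passed the filter. With so few reads this is not read as a difference. Slc6a4 was not part of the filtered fits, and its values in fits without a filter are not given here. With 5 libraries 1 of the 11 rose and 2 fell, beside the 9.39% and 10.4% of all genes given above. The median log2 fold change of the list was 0.10 with 5 libraries and -0.09 with 6. Maoa, the main enzyme of serotonin breakdown, was at 15.4, 18.9 and 20.1 FPKM in Ash1l+/- replicates 1, 2 and 3, against 12.5, 13.9 and 14.4 FPKM in WT replicates 1, 2 and 3. Every Ash1l+/- library was above every WT library, and Maoa rose by a log2 fold change of 0.43 (SE 0.10, adjusted p = 0.00659 in edgeR). Qdpr, which regenerates the tetrahydrobiopterin cofactor of serotonin synthesis, was at 37.2, 33.5 and 34.9 FPKM in Ash1l+/- replicates 1, 2 and 3, against 51.3, 128 and 53.5 FPKM in WT replicates 1, 2 and 3. It fell by 0.58 on the log2 scale (SE 0.08, adjusted p = 9.67e-05 in edgeR). Spr, which makes the same cofactor, fell by 0.50 (SE 0.09, adjusted p = 0.00114 in edgeR). With trends removed, Qdpr and Spr were still called (log2 fold changes -0.44 and -0.41) and Maoa was not (0.21, adjusted p = 0.131 in edgeR). With 6 libraries none of the 11 passed, with unadjusted p under 0.05 for these 3 in edgeR and 0 calls in DESeq2.

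Genes that carry the signal of the receptors were read as a list of 34, of which 33 passed the filter with 6 libraries and 34 with 5. None passed in edgeR with 6 libraries, 1 had an unadjusted p under 0.05 and DESeq2 called 0. With 5 libraries 3 of the 34 rose and 3 fell, beside 9.39% and 10.4% of all genes. The median log2 fold change of the list was -0.02 with 5 libraries and 0.24 with 6. Gnas, which encodes the Gs alpha subunit, was at 11.5, 7.77 and 7.10 FPKM in Ash1l+/- replicates 1, 2 and 3, against 17.4, 2.38 and 14.7 FPKM in WT replicates 1, 2 and 3. It fell by 0.87 on the log2 scale (SE 0.13, adjusted p = 2.94e-04 in edgeR), while WT replicate 2 lay below every Ash1l+/- library. The adenylyl cyclase gene Adcy5 fell by 0.35 (adjusted p = 0.00311) and Rapgef3, which encodes a cyclic AMP sensor, fell by 0.52 (adjusted p = 0.0356), both in edgeR. The phospholipase C genes Plcb1 and Plcb4 rose by 0.30 and 0.32 (adjusted p = 0.0339 and 0.0088 in edgeR). Kcnj3, a subunit of the potassium channel that Gi/o receptors open, rose by 0.30 (adjusted p = 0.0457 in edgeR). With trends removed, Gnas was still called, at -0.73, Adcy9 was called higher, at 0.31, and the other 5 genes named here were not called.

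The genes whose pattern over libraries was most like that of the highest receptors were chosen by Pearson r of log2 CPM among 13444 protein-coding genes. Over 6 libraries, Htr3a was nearest to Stim1 (0.99), Mamstr (0.99) and Hexim1 (0.98), and Htr1d to Rab7, Lysmd4 and Zfp703 (1.00 each). Over 5 libraries, Htr3a was nearest to Vps26b, Trp53rkb and Ccdc51 and Htr1d to Nxt1, Clip3 and Ccdc71l, all at 1.00. No gene was named in both sets. For Htr1d over 6 libraries, 890 genes had an r of at least 0.95, so that the order among them rests on small differences.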

How the data were processed

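The authors deposited raw read counts per gene for 6 libraries, with gene names, positions and lengths, and FPKM values for the same genes. The submitters' processing notes name GRCm38 (mm10) with the aligner HISAT2 (2.0.5) and the counter featureCounts (1.5.0-p3), without their settings. Libraries came from Trizol RNA of frozen ganglia with a NEBNext Ultra kit, per the labels' protocols. The deposited FPKM equal the counts divided by gene length and 1 library size per sample, within 0.1%, for 100% of genes with 20 or more reads, and that size was 0.75 of the total in WT replicate 2 and 1.02 to 1.04 times it elsewhere.

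Counts were filtered with filterByExpr and tested with edgeR 4.0.16 (quasi-likelihood test, TMM factors, genotype as the only term) in R 4.3.3, with Benjamini-Hochberg adjustment over all genes tested and a threshold of 0.05. SEs are the log2 fold change over the square root of F, and 95% intervals use the test's degrees of freedom. DESeq2 1.42.0, limma 3.58.1 and the other alternatives were recomputed for each result. GC and length trends were removed with loess offsets (span 0.3) from GENCODE M21 transcripts, which gave GC values for 99.9% of tested genes. No libraries agreed within sampling noise (lowest chi-square per degree of freedom 3.98). The receptors, the other lists and the use of 5 libraries were chosen with earlier results of these data known. The receptors and Ash1l were always named, and other list genes where they passed without WT replicate 2. Tph1, Tph2, Slc6a4, Adcy9 and the cell markers were named after their values were seen.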

Additional observations from a re-analysis of the deposited data

How the results depend on the processing

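With 6 libraries, the count of 0 called receptor genes changed under voom with library quality weights alone, which called 1 (Htr1f, adjusted p = 0.0214 in limma) and gave WT replicate 2 a weight of 0.0274. That fit called 4179 genes, with 3 of the metabolism and 9 of the transduction list, and DESeq2 called 35 genes in all. Leave-one-out gave 0 to 3252 genes in all, 0 to 3 of the metabolism and 0 to 6 of the transduction list, the highest without WT replicate 2 and 0 otherwise.

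Without WT replicate 2, Htr1f was called with RLE factors, upper-quartile factors and log2(FPKM + 1), 1 receptor gene each. Voom with quality weights called 2, Htr1f and Htr3a, and leaving out 1 more library called 0 to 2. The range of Htr1f's adjusted p over its settings was 0.0404 to 0.413. All called genes numbered 1528 with log2(FPKM + 1), 1587 with log2(FPKM + 0.1), 0 with log2(FPKM + 1) and no filter, 1154 with trends removed and 796 to 4198 with 1 more library left out, against 3252. Without WT replicate 1 as well (796), the single WT library is assumed to vary like the other group. The count was 1855 without Ash1l+/- replicate 2 and 2120 without Ash1l+/- replicate 3. Of calls, 47.3% were higher in Ash1l+/-, against 37.3% with trends removed and 33.8% and 35.7% on the filtered FPKM scales. The metabolism list had 0 calls with log2(FPKM + 1) and no filter, and 1 to 3 with 1 more library left out. The transduction list had 11 with quality weights, 2 and 3 on the filtered FPKM scales, 0 without filter, 2 with trends removed and 1 to 10 with 1 more library left out.

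The replicate block gave 11 calls in the transduction list without WT replicate 2, and with trends removed 1522 genes in all and 2 in that list. It called no receptor gene. Same-numbered libraries deviated from their group means together at r of 0.000517, -0.0317 and 0.0378. The WT mean includes WT replicate 2, which stood apart, so these values showed no pairing by number but cannot exclude one.

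With 6 libraries, log2 fold changes reversed under quality weights for Htr1a (-0.072), Htr5a (-0.088) and Htr7 (-0.12), and without WT replicate 2 for the same genes. Over the libraries left out, Htr1a ranged from -0.089 to 0.44, Htr5a from -0.093 to 0.60 and Htr7 from -0.070 to 0.48. With trends removed Htr2a (-0.094) and Htr3a (0.10) reversed, and with the replicate block added these were -0.090 and 0.11. With 5 libraries Htr3a reversed under the replicate block with trends removed (0.029). Htr5a reversed without Ash1l+/- replicate 1, with a range of -0.25 to 0.014 over the libraries left out, and Htr1a without WT replicate 3, with a range of -0.22 to 0.045. The cause of these changes was not tested. On library totals the median log2 fold change of all genes with 6 libraries was 0.13, and 7 receptor genes were above 0 and 3 below, as with TMM factors.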
